A study of Homo sapiens with 6 samples.

Results

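RNA levels of 7 neighbouring genes of chromosome band 11q13, namely MYEOV, CCND1, FGF19, ANO1, FADD, PPFIA1 and CTTN, were read in LoVo cells after knockdown of the splicing factor SRSF11. The genes are 7 of the 58735 genes in the deposited count table, found there by gene symbol. MYEOV was chosen by its own log2 fold change between si-SRSF11 and si-NC, which was among the lowest of these same libraries, so its difference is given as a description with no test. The other 6 genes were chosen for their position near it, with earlier results of these data known. They are not all the genes of that stretch, which holds 7 further tested genes. LoVo is an established human colorectal cancer line. The cells were transfected with a negative control siRNA (si-NC, 3 libraries) or with siRNA against SRSF11 (si-SRSF11, 3 libraries), and polyadenylated RNA was sequenced as paired-end reads. The study lists 3 SRSF11 siRNAs, and the sources used here do not say which was sequenced, so the comparison is of 1 cell line with siRNA of unstated identity.

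Band 11q13 is known as a region that is gained as a block in breast, head and neck and oesophageal cancers. CCND1 encodes cyclin D1, which binds CDK4 or CDK6 and promotes phosphorylation of the retinoblastoma protein, the brake on entry into S phase. MYEOV was named for its overexpression in myeloma cells, and the function of its product is poorly understood. FGF19 is a hormone of the ileal epithelium that acts on the liver through FGFR4 and its co-receptor KLB and lowers bile acid synthesis. ANO1 is a calcium-activated chloride channel, FADD is the adaptor that joins death receptors to caspase-8, PPFIA1 (liprin alpha 1) organises adhesion sites, and CTTN (cortactin) binds branched actin filaments. DNA copy number was not measured in these libraries.

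Library totals ranged from 14369525 to 16685719 counts. The targeted gene, SRSF11, averaged 86.5 ± 1.90 CPM in the si-NC libraries against 49.5 ± 0.952 CPM after knockdown (CPM here is the count per 1e+06 reads after TMM scaling; SD, n = 3 each). That is 57.2% of si-NC, the direction that the labels give. A splicing plot of the study puts the opposite condition names on these libraries; the labels are used here, and with the names exchanged every direction below would turn. All 10 epithelial markers were tested genes, with a summed level of 5837 to 6201 CPM in si-NC and 5872 to 6282 CPM in si-SRSF11, although KRT20 and CEACAM5 stayed near 1 CPM, CDX2 rose by 0.40 and CLDN7 fell by 0.52 on the log2 scale. Of 10 markers of blood, endothelial and stromal cells, 3 (PTPRC and DCN among them) had 0 counts in all libraries, and the sum was 17.9 to 20.7 CPM in si-NC and 15.9 to 19.3 CPM in si-SRSF11. Over the whole table, 15801 genes had at least 10 counts in at least 3 libraries and were tested. Of these, 24.6% passed an adjusted p of 0.05 in edgeR's quasi-likelihood test, with 13.2% higher and 11.4% lower in si-SRSF11. Under library size scaling alone the split turned, with 1585 genes higher and 2289 lower, against 2081 and 1805 with TMM. All 7 genes of the cluster passed the filter on low counts.

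The 7 genes span 1142447 bp of GRCh38, from chr11:69294138 to chr11:70436584. MYEOV (ENSG00000172927) lies on the plus strand at chr11:69294138-69367726. Its 3 protein-coding transcripts end by 69297287, and 5 of its 12 annotated transcripts reach beyond them as non-coding RNA, with 33.7% of the gene's exon bases. Gene counts do not separate these 2 kinds of transcript. CCND1 (ENSG00000110092, plus strand, chr11:69641087-69654474) begins 273.4 kb after MYEOV ends, and FGF19 (ENSG00000162344, minus strand, chr11:69698232-69704642) lies 43.8 kb beyond CCND1. A gap of 373.7 kb separates FGF19 from ANO1 (ENSG00000131620, plus strand, chr11:70078302-70189528). FADD (ENSG00000168040, chr11:70203163-70207390), PPFIA1 (ENSG00000131626, chr11:70270700-70385312) and CTTN (ENSG00000085733, chr11:70398404-70436584) follow on the plus strand with gaps of 13.6, 63.3 and 13.1 kb.

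After SRSF11 knockdown, RNA of the first 3 genes along the chromosome was lower. MYEOV stood at 59.2% of its si-NC level, CCND1 fell to 79.6% and FGF19 fell to 80.5%. ANO1, FADD, PPFIA1 and CTTN did not pass the test, with means between 98.3% and 117% of si-NC. Of the 6 genes chosen for position, 2 passed and both were lower, where 24.6% of all tested genes passed and 11.4% passed as lower. As the 6 were picked with earlier results of these data known, the 2 are a description and not a rate for the region. In bulk RNA, less RNA per cell and fewer cells that make it cannot be told apart.

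**Figure D1:**
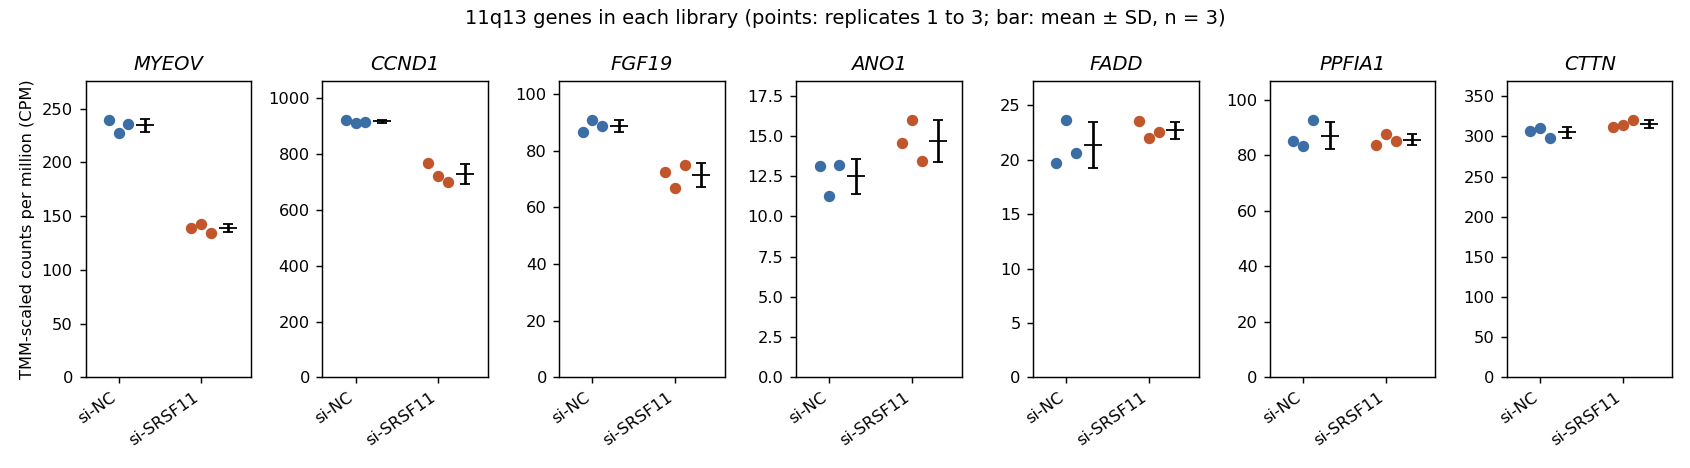
TMM-scaled CPM (linear axis from 0) of the 7 genes in each of the 3 si-NC and 3 si-SRSF11 libraries, with the mean and SD beside the points (n = 3). MYEOV, CCND1 and FGF19 lie lower in each si-SRSF11 library than in each si-NC library, and the points of FADD and PPFIA1 overlap between the groups.

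For MYEOV, 3476, 3457 and 3677 reads were counted in the si-NC libraries (replicates in order, here and throughout) and 2177, 2315 and 2196 in the si-SRSF11 libraries. In CPM these were 239.7, 227.5 and 236.0 CPM in si-NC and 139.2, 142.4 and 134.7 CPM in si-SRSF11. The groups lay far apart, with the highest si-SRSF11 library well below the lowest si-NC library. On average MYEOV went from 234 ± 6.28 to 139 ± 3.90 CPM (SD, n = 3 each), a log2 fold change of -0.76 with a standard error of 0.047. Of the 15801 tested genes, 349 had a lower log2 fold change. Among the 2000 other tested genes whose mean level was within 2-fold of that of MYEOV, 2 did. These ranks describe how far MYEOV stood out, since it was chosen for this difference.

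CCND1 was the most abundant of the cluster, with 13364, 13851 and 14233 counts in si-NC and 12010, 11703 and 11385 counts in si-SRSF11. The 3 si-NC libraries lay close together at 921.5, 911.3 and 913.7 CPM, and the si-SRSF11 libraries were lower and more spread at 767.9, 720.1 and 698.2 CPM. The log2 fold change was -0.33 (standard error 0.045, edgeR adjusted p = 1.15e-05). The groups did not overlap (two-sided permutation test, exact, p = 0.10, which no design of 3 against 3 can go below). The cyclin D1 gene shares 10.3% of its exon bases with LTO1 on the opposite strand, and no source used here says whether reads were assigned by strand.

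FGF19 had 1257, 1382 and 1382 counts in si-NC and 1134, 1087 and 1225 counts in si-SRSF11. Its mean level went from 88.8 ± 2.13 to 71.5 ± 4.21 CPM (SD, n = 3 each), with each si-SRSF11 library below each si-NC library. The log2 fold change was -0.31 (standard error 0.055, edgeR adjusted p = 0.000233). The FGF19 value was close to that of CCND1, from a much less abundant RNA whose gene shares no exon base with another annotated gene. For both genes, the adjusted p stayed under 0.05 in 13 of 13 other settings.

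ANO1 was the least abundant, with 190, 171 and 205 counts in si-NC and 228, 260 and 219 counts in si-SRSF11. The mean level went from 12.5 ± 1.09 to 14.7 ± 1.29 CPM (SD, n = 3 each). Every si-SRSF11 library lay above every si-NC library, but the log2 fold change of 0.23 (standard error 0.11) did not pass (edgeR adjusted p = 0.13). The 95% interval of the log2 fold change ran from 0.0045 to 0.46, so values close to 0 and values larger in size than the change of CCND1 both lie within it.

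FADD had 286, 360 and 322 counts in si-NC and 368, 358 and 368 counts in si-SRSF11, and the groups overlapped once scaled, at 21.4 ± 2.07 and 22.7 ± 0.761 CPM (SD, n = 3 each). Its log2 fold change was 0.09 (95% interval -0.098 to 0.27, edgeR adjusted p = 0.52). FADD shares 54.9% of its exon bases with the antisense gene AP000879.1, which had 0 counts in all 6 libraries. All 1011 exon bases of AP000879.1 lie within FADD. Its 0 counts therefore cannot show whether reads over the shared bases were given to FADD or dropped. PPFIA1 had mean levels of 87.2 ± 5.02 CPM with si-NC and 85.7 ± 1.96 CPM with si-SRSF11 (SD, n = 3 each), again with overlapping groups. Its log2 fold change was -0.03 (95% interval -0.14 to 0.086, edgeR adjusted p = 0.77), and it changed sign, to 0.02, without si-NC replicate 3.

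CTTN had 4458, 4717 and 4641 counts in si-NC and 4872, 5114 and 5233 counts in si-SRSF11. The scaled levels were 307.4, 310.4 and 297.9 CPM against 311.5, 314.7 and 320.9 CPM, which is a narrow gap with no overlap. The log2 fold change was 0.05 (standard error 0.045, 95% interval -0.045 to 0.14, edgeR adjusted p = 0.47). Cortactin RNA was among the better counted of the cluster, and its interval leaves out a fall of the size of CCND1 or FGF19. Of the 6 genes chosen for position, 4 had groups that did not overlap, as had 38.8% of all tested genes.

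Levels can be compared between genes only per length, as RPKM (CPM per kb of the listed gene length). That length joins the exons of all annotated transcripts, 27 of them for PPFIA1. For MYEOV, 1266 of its 3760 bp lie beyond the coding transcripts. In si-NC the order was CCND1 (189.5 RPKM), MYEOV (62.3), CTTN (43.9), FGF19 (36.3), FADD (11.6), PPFIA1 (7.45) and ANO1 (2.08). Each neighbour in this order differed by more than the spread of the 3 libraries. In si-SRSF11, CTTN (45.4 RPKM) stood above MYEOV (36.9 RPKM) and the rest of the order stayed. Both orders hold for these lengths only, and other lengths were not tested. CCND1 had 2.99 to 3.12 times the RPKM of MYEOV in the si-NC libraries and 3.94 to 4.30 times in the si-SRSF11 libraries. The 7 genes summed to 1665 ± 7.62 CPM (SD, n = 3) in si-NC and 1378 ± 32.3 CPM (SD, n = 3) in si-SRSF11, and MYEOV went from 13.7% to 14.3% of that sum in si-NC to 9.85% to 10.4% in si-SRSF11.

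The spread between libraries also differed among the genes. The coefficient of variation was lowest for CCND1 in si-NC (0.583%) and highest for FADD in si-NC (9.69%), and ANO1 stood at 8.69% in si-NC and 8.77% in si-SRSF11. FADD stood at 3.35% in si-SRSF11, lower than in si-NC, while CCND1 was more spread in si-SRSF11 (4.89%) than in si-NC.

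The motif that the study gives for SRSF11, the hexamer GACTCA or GACCCA, was searched in the longest annotated coding sequence of each gene, on the RNA strand alone (the letters cannot overlap each other). MYEOV (939 nt), CCND1 (885 nt), FADD (624 nt) and CTTN (1902 nt) held no match. FGF19, ANO1 and PPFIA1 held 1 each. They are printed from GENCODE 29 transcripts with 12 bases on each side and the motif in capitals, because they are all the matches in the coding sequences read.
FGF19: accgacagcatgGACCCAtttgggcttgtc
ANO1: ggaaacagatgcGACTCAactaccgctggg
PPFIA1: tacactgagagaGACTCAagaaacgctggc
The FGF19 stretch is coding sequence of exon 3 at chr11:69699304-69699333 (minus strand), the ANO1 stretch of exon 12 at chr11:70149737-70149766 and that of PPFIA1 of exon 1 at chr11:70272328-70272357 (both plus strand). Over the coding sequences of 12746 tested genes the motif occurred 0.59 times per kb. It was held by 40.4% of coding windows as long as that of MYEOV, by 38.5% of those as long as that of CCND1 and by 30.4% of those as long as that of FGF19. For the lengths of ANO1, FADD, PPFIA1 and CTTN the shares were 78.5%, 29.3%, 84.4% and 63.8%. A match is a description of letters only. Introns, untranslated regions, non-coding exons and coding exons found only in other transcripts were not searched, so sites there were not counted. The exons of MYEOV cover 3760 bp and those of CCND1 4830 bp, far more than the 939 and 885 nt read.

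To see how far along the chromosome the differences ran, all genes were read from 1 Mb below MYEOV to 1 Mb above CTTN. This window holds 68 annotated genes, of which 26 were tested, 19 of them outside the cluster. Of these 19, 7 passed, 3 higher and 4 lower. AP003096.1 and AP000439.1, which are among the 4, reached the filter of 10 counts through the si-NC libraries alone, so a lower value was favoured for them, and 5 passed where all 6 libraries had to reach it. The number was 3 under DESeq2 and without si-NC replicate 1 or 2, and 4 without si-NC replicate 3 or si-SRSF11 replicate 1, so 7 is not read against the 24.6% of all tested genes. For the 19 genes the median log2 fold change was -0.08 against 0.0015 over all tested genes. AP003096.1 and AP000439.1 are among the 19 and pull this median down, so it is not read as a shift of the window. The calls at lower level in the stretch of 410.5 kb from MYEOV to FGF19 were AP000439.1, LINC01488 and LTO1, and none of the 3 passed under DESeq2, which gave an adjusted p of 0.0743 for LINC01488, 0.0866 for LTO1 and none for AP000439.1.

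LTO1, a gene for a factor of ribosome and iron-sulfur protein assembly, converges on CCND1 from the opposite strand. It had 387, 383 and 410 counts in si-NC and 359, 351 and 368 in si-SRSF11, with no overlap after scaling, and a log2 fold change of -0.22 (standard error 0.080, edgeR adjusted p = 0.047). The call was lost in 8 of 13 other settings, among them each fit that left out 1 library, with an adjusted p of up to 0.14. LTO1 shares 497 bp of exon with the end of CCND1, and the part of CCND1 reads in its value was not tested.

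Between MYEOV and CCND1 lie 5 tested long intergenic RNA genes. LINC01488 had 34, 42 and 31 counts in si-NC and 20, 27 and 18 in si-SRSF11, for a log2 fold change of -0.81 (standard error 0.28, edgeR adjusted p = 0.038). AP000439.1 had 12, 12 and 17 counts against 5, 4 and 7. It was tested only through its si-NC counts, so its difference is given by these counts alone. Both genes had few reads. The LINC01488 call was lost under DESeq2 and without si-NC replicate 1 or 2 or si-SRSF11 replicate 1 or 3, with an adjusted p of up to 0.136. The best counted of the 5, AP000439.2, had 440, 486 and 538 counts in si-NC and 493, 573 and 614 in si-SRSF11, with a log2 fold change of 0.11 that did not pass (edgeR adjusted p = 0.34). On either side of MYEOV no tested neighbour passed. The nearest at higher coordinates, AP005233.2, was at -0.11 on the log2 fold change scale (standard error 0.30, edgeR adjusted p = 0.83), and the nearest at lower coordinates, the endolysosomal channel gene TPCN2, at 0.05 (standard error 0.062, edgeR adjusted p = 0.58). IFITM9P, a pseudogene inside MYEOV, had 13 counts in all.

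At lower coordinates than TPCN2, CPT1A rose from 157 ± 4.59 to 196 ± 6.21 CPM (SD, n = 3 each), with a log2 fold change of 0.32 (edgeR adjusted p = 3.92e-05). CPT1A carries fatty acids into mitochondria. GAL, the neuropeptide galanin, rose by a log2 fold change of 0.27 (edgeR adjusted p = 0.00186), from 101 ± 6.39 to 121.5 ± 9.60 CPM (SD, n = 3 each). DHCR7, the last enzyme of one branch of cholesterol synthesis, crosses the far edge of the window and rose by 0.69 (edgeR adjusted p = 1.15e-09). AP003096.1, a long intergenic RNA, had 12, 15 and 10 counts in si-NC and 5, 3 and 2 in si-SRSF11 and was likewise tested only through si-NC. Neither it nor AP000439.1 was tested where a si-NC library was left out. The 3 rises were kept in 13 of 13 other settings. With 61 genes, the window outside the cluster summed to 913 ± 12.1 CPM (SD, n = 3) in si-NC and 1025 ± 9.27 CPM (SD, n = 3) in si-SRSF11. Nearly all of this rise came from CPT1A, GAL and DHCR7 (88.4 to 142 CPM), so it is not a trait of the window. The median log2 fold change of its 19 tested genes was -0.08, but it includes AP003096.1 and AP000439.1, for which the filter favoured a lower value. The sum of the 7 genes fell, but it holds MYEOV, which was chosen for its fall. Without MYEOV it went from 1431 to 1239 CPM.

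The other FGF genes of the band were close to silent. FGF4 had 0 counts in all libraries, and FGF3 had 0, 0 and 1 counts in si-NC and 3, 3 and 1 in si-SRSF11. SHANK2, a scaffold gene beyond CTTN, had a fold change of -0.14 on the log2 scale (standard error 0.16, edgeR adjusted p = 0.58), and LRP5, the Wnt co-receptor gene at the lower end, of 0.07 (standard error 0.046, edgeR adjusted p = 0.30).

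Lists of genes that work with the members were then read in the same fit, with the members themselves left out. Over 7 lists, 28 of 86 tested genes passed (32.6%, against 24.6% of all tested genes), 17 higher and 11 lower, with a median log2 fold change of 0.03. Protein-coding genes passed more often than the table as a whole, at 27.4%.

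Among 12 tested genes of the cyclin D and CDK4/6 list, 5 passed (2 higher, 3 lower), with a median log2 fold change of -0.02. The number was 2 without si-NC replicate 3 and 3 without si-SRSF11 replicate 1. The other D cyclins did not pass. For CCND3 the log2 fold change was -0.10 (standard error 0.055, edgeR adjusted p = 0.21), and CCND2 had 1 to 7 counts in every library and was not tested. CDK4 stood at -0.02 (edgeR adjusted p = 0.80). It shares 43.2% of its exon bases with TSPAN31. CDK6 passed at 0.19 (edgeR adjusted p = 0.029) although its groups overlapped, and RB1, the retinoblastoma gene, rose by 0.20 (edgeR adjusted p = 0.016). The CDK6 call was lost in 6 of 13 other settings, 4 of which left out 1 library (si-NC replicate 2 or 3, si-SRSF11 replicate 1 or 2), and the RB1 call was lost without si-NC replicate 3 or si-SRSF11 replicate 1.

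All 3 lower genes of the list code for CDK inhibitors, a kind of gene that the list holds many of. CDKN1A (p21) fell from 458 to 320 CPM, for a log2 fold change of -0.52 (standard error 0.052, edgeR adjusted p = 1.92e-07). CDKN2D (p19) fell by 0.52 on the log2 scale (edgeR adjusted p = 0.00131) and CDKN1C (p57) by 0.33 (edgeR adjusted p = 0.00974), the last of which was lost without si-NC replicate 3. CDKN1B (p27) did not pass, with a log2 fold change of 0.03 (edgeR adjusted p = 0.68). The inhibitor genes CDKN2B, at -0.28 (edgeR adjusted p = 0.32), and CDKN2C, at 0.05 (edgeR adjusted p = 0.81), did not pass either.

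Among E2F target genes, which the retinoblastoma protein holds back until cyclin D and its kinases act, 9 of 22 passed, 7 higher and 2 lower, with a median of 0.07. Of the 7 higher genes, 6 are MCM2 to MCM7, the subunits of the replicative helicase, with log2 fold changes from 0.39 (MCM7) to 0.51 (MCM3, edgeR adjusted p = 4.39e-08). These 6 calls were kept in 13 of 13 other settings. ORC1 was the other, at 0.23 (edgeR adjusted p = 0.046), and it passed in 3 of 13 other settings. The phosphatase gene CDC25A fell by 0.59 on the log2 scale (edgeR adjusted p = 1.78e-06) and CCNA2 (cyclin A2) by 0.29 (edgeR adjusted p = 0.00144). CCNE1 and E2F1 did not pass, with log2 fold changes of -0.09 and 0.20.

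For FGF19, 9 other genes of its list (ligands, receptors, the co-receptor KLB and FRS2) were tested and 1 passed. FGFR3 rose by 0.18 (edgeR adjusted p = 0.028). That call was lost under DESeq2, under library size scaling, and without si-NC replicate 2 or 3 or si-SRSF11 replicate 1 or 2. FGFR4, the main FGF19 receptor, stood at 39.3 CPM in si-NC and 45.2 CPM in si-SRSF11 for a log2 fold change of 0.20 (standard error 0.076, edgeR adjusted p = 0.055), and it passed in 3 of 13 other settings. The co-receptor KLB was low, at 1.13 and 1.33 CPM. Its log2 fold change was 0.24 with a standard error of 0.33. NR1H4, the bile acid receptor that drives FGF19 in the ileum, had 0 counts in all 6 libraries.

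Of the other anoctamins, 4 were tested. ANO8 fell from 74.4 to 57.6 CPM, for a log2 fold change of -0.37 (standard error 0.055, edgeR adjusted p = 3.58e-05). ANO10 did not pass at -0.08 (edgeR adjusted p = 0.55), nor did ANO7 or ANO9. ANO6 had 1 count in the 6 libraries together and was not tested.

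Among 12 tested partners of FADD, 4 passed (2 higher, 2 lower), with a median of 0.08. TNFRSF10B, a receptor of the ligand TRAIL, fell from 455 to 337 CPM, for a log2 fold change of -0.44 (standard error 0.044, edgeR adjusted p = 2.41e-07). CFLAR, an inhibitor of caspase-8, fell by 0.18 on the log2 scale (edgeR adjusted p = 0.028). BID, which caspase-8 cleaves, rose by 0.21 (edgeR adjusted p = 0.016). FAS and CASP8 did not pass, with log2 fold changes of 0.15 and 0.09. The number that passed was 2 without si-NC replicate 1, si-NC replicate 2 or si-SRSF11 replicate 3. The BID and CFLAR calls were both lost in those fits, with an edgeR adjusted p of up to 0.063 for BID. The TNFRSF10B call was kept in 13 of 13 other settings, and the CFLAR call was also lost without si-NC replicate 3.

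In the liprin list, 2 of 11 tested genes passed. KANK1, which links liprins at adhesion sites, rose by 0.44 (standard error 0.079, edgeR adjusted p = 0.000272). PPFIBP1, a beta liprin, had a log2 fold change of -0.18 (edgeR adjusted p = 0.035) with overlapping groups, and its call was lost without si-NC replicate 1, si-NC replicate 2 or si-SRSF11 replicate 3. The receptor phosphatase gene PTPRF did not pass at 0.05 (edgeR adjusted p = 0.49). The number of calls in the list was 1 without si-NC replicate 1 or 2 and 4 without si-SRSF11 replicate 3.

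Among 16 tested genes around cortactin and the actin-branching Arp2/3 complex, 6 passed (4 higher, 2 lower), with a median of -0.0062. DNM2 (dynamin 2) fell by 0.26 on the log2 scale (edgeR adjusted p = 0.000305) and the complex subunit ARPC3 by 0.17 (edgeR adjusted p = 0.012). MMP14, a membrane protease, rose by 0.26 (edgeR adjusted p = 0.000571) and the subunit ARPC5 by 0.24 (edgeR adjusted p = 0.00141). SH3PXD2A and SH3PXD2B, scaffolds of invasive protrusions, had log2 fold changes of 0.26 and 0.23 and passed. ACTR3 and WASL did not pass, at -0.09 and -0.14. The SH3PXD2A call was lost without si-SRSF11 replicate 1 and that of ARPC3 without si-SRSF11 replicate 2.

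Genes with a like profile over the 6 libraries were looked up by the distance between centred log2 CPM values. For MYEOV the 5 nearest were NR1D1 (distance 0.0568), SEMA4F (0.0757), PER1 (0.0924), GTPBP2 (0.101) and SRSF11 itself (0.102). None of these 5 lies on chromosome 11. For CCND1 the 5 nearest were VCL (0.0563), SERINC5 (0.0647), C20orf96 (0.0669), KAT2B (0.0702) and TRIM16L (0.072), also on other chromosomes. Within the cluster, CCND1 and FGF19 were nearest each other (0.176), and MYEOV stood 0.531 from CCND1 and 0.58 from FGF19. Such distances rest on 6 libraries and mostly repeat the difference between the groups.

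**Figure D2:**
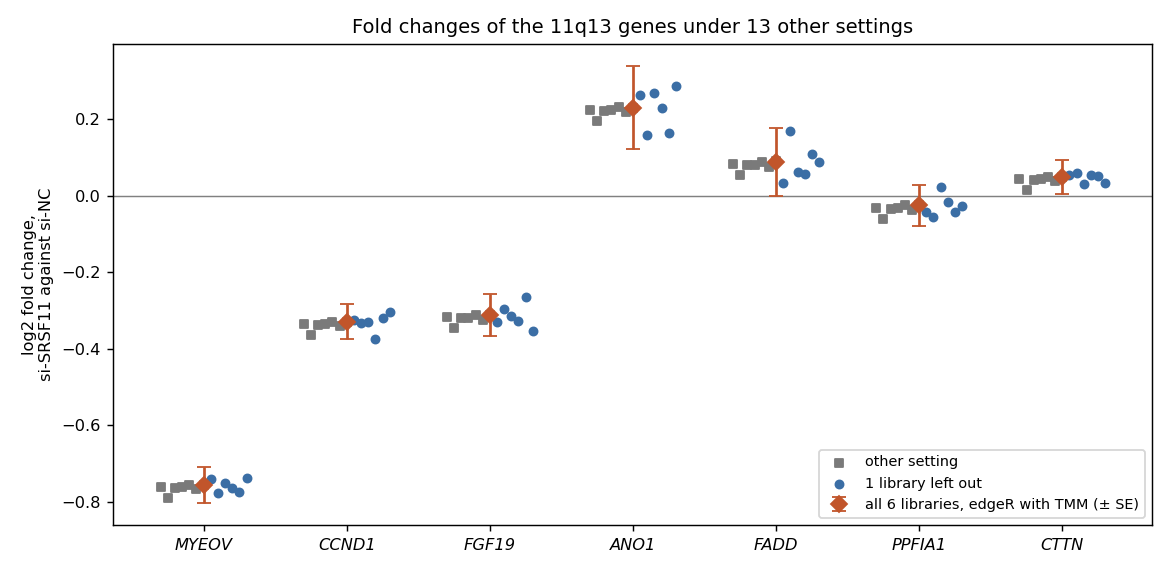
Log2 fold change (vertical axis) of each of the 7 genes with all 6 libraries (orange diamond with standard error), with 1 library left out (blue circles) and under 7 other settings (grey squares). MYEOV stays between -0.79 and -0.74, CCND1 between -0.37 and -0.30 and FGF19 between -0.35 and -0.27, while PPFIA1 lies on both sides of 0.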

How the data were processed

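LoVo RNA was sequenced by the authors as paired-end reads, 3 libraries per condition, described by the study as independent RNA samples; whether they came from separate cultures is not stated, and p-values then measure only the spread between these samples. The deposited table holds raw counts per gene, without normalization or filter. Per the labels the build was hg38; the aligner and the counting program are not given in the sources used here. All 58735 identifiers, starts, ends and strands match GENCODE 29.

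The filter asked for 10 or more counts in 3 or more libraries. After TMM scaling, the quasi-likelihood functions of edgeR 4.0.16 (glmQLFit, glmQLFTest) under R 4.3.3 compared the conditions with no covariate, with Benjamini-Hochberg adjustment over all 15801 tested genes. Standard errors come from the F statistic, and 95% intervals from its degrees of freedom. DESeq2 (version 1.42.0), other scalings and filters, a replicate block and leaving out each library were the alternatives. The fit was tested on simulated data. No set test was run.

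Named genes were the 7 members, SRSF11, genes of the window past the threshold, the neighbours of MYEOV, fixed direct partners, up to 4 genes per list with the smallest adjusted p, and the 5 nearest profiles. Others, such as AP000439.2, AP000487.1, FGF3, FGF4, SHANK2, LRP5, IFITM9P, NR1H4, ORC1, CCNA2, MCM7, CCNE1, E2F1, CDKN1B, CDKN2B, CDKN2C and SH3PXD2A, were added after their values were seen. The members and lists were chosen with earlier results of these data known. Some list genes that the rule would name are not reported here.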

Additional observations from a re-analysis of the deposited data

How the results depend on the processing

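With 13 other settings each, the log2 fold changes of MYEOV, CCND1, FGF19, ANO1, FADD and CTTN kept their direction, and those of the 6 genes other than MYEOV kept their side of the threshold. PPFIA1, which did not pass in any setting, ranged from -0.057 to 0.0223 with 1 library left out and was 0.0223 without si-NC replicate 3. Of the genes near the cluster, 7 passed with all libraries, 3 under DESeq2, 4 when protein-coding genes alone were tested (which leaves out the 3 non-coding ones by construction) and 3 to 5 with 1 library left out (3 without si-NC replicate 1 or 2, 4 without si-NC replicate 3 or si-SRSF11 replicate 1). Under DESeq2, AP003096.1 and AP000439.1 got no adjusted p because of its filter on low means, and LINC01488 and LTO1 had 0.0743 and 0.0866. The 28 calls over the lists became 22 to 29 with 1 library left out. Whether the replicate numbers pair the libraries is not stated in the sources used here. Across genes, deviations of same-numbered libraries were correlated by 0.0151, 0.0362 and 0.0403, and those of other pairs by -0.0337 to -0.00314. Each library thus correlated best with its own number, but values this small do not settle the question. With the replicate block, CCND1 stood at -0.33 and FGF19 at -0.31, and 4036 genes passed in place of 3886. Among the 7 genes, ANO1 and FADD had the fewest counts and the widest standard errors, 0.11 and 0.089.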

Other observations

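Several relatives of the 11q13 genes were at or near 0 in all 6 LoVo libraries. ANO6, the scramblase of the anoctamin family, had 1 count in si-NC replicate 1 and 0 in the other 5 libraries. CTTNBP2 and WIPF1 of the cortactin list, PPFIA2, PTPRD and ERC2 of the liprin list, and the death ligand genes FASLG and TNFSF10 had 0 counts throughout. CDKN2A, the gene of p16, had 0 to 4 counts per library. These values were noticed after the data were examined and are given with no test.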
